A study of Mus musculus with 4 samples.

Results

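The IGF-binding proteins and the proteins that regulate them outside the cell were read on 4 Affymetrix arrays of cultured mouse osteoblasts. The 8 genes are Igfbp2, Igfbp3, Igfbp4, Igfbp5, Igfbp6, Igfbp7, Pappa and Stc2. They were taken by symbol: every probe set that the platform annotation assigns to one of these symbols alone was used, whatever its values. That gave 21 of the 34945 probe sets with 1 symbol, which stand for 18193 genes. Igfbp4 had 6 probe sets, Igfbp7, Pappa and Stc2 had 3 each, Igfbp3 and Igfbp5 had 2 each, and Igfbp2 and Igfbp6 had 1 each. A brightness filter at a mean intensity of 67.8, the median over all probe sets that are not controls, was reached by 20 of the 21. The exception was 1 probe set of Stc2.

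Insulin-like growth factors act through the IGF-1 receptor, and most of the IGF outside cells is held by IGF-binding proteins, which keep it from the receptor until a protease cuts them. PAPP-A, the product of Pappa, is such a protease and cleaves IGFBP-4 and IGFBP-5. Stanniocalcin-2, the product of Stc2, binds PAPP-A and blocks it. Osteoblasts secrete several of these proteins, and IGFBP-5 in particular is stored in bone matrix.

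Osteoblasts are the cells that form bone. For all 4 arrays the growth protocol describes cells without the receptor for IGF-1, while the genotype entry reads IGF-1 null. Which of the 2 genes was missing is not settled by the labels. After growth to confluence and serum starvation, cells received 10 nM insulin for 6, 12 or 24 h, and the control array is labelled 0 h. Each of the 4 groups has 1 array, so no difference below has an error or a p-value. Precision is limited by this number of arrays. Whether the cells were a clone, a pool of clones or a primary culture was not given in the sources used here. Untreated cells at 6, 12 or 24 h were not analysed here, and insulin and time in culture therefore cannot be told apart. The values are RMA intensities, where RMA corrects background, scales arrays to one another and summarises the probes of a probe set, and array medians lay between 65.0 and 65.7.

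The 0 h array stood apart from the other 3 before any member was considered. Xist, which silences an X chromosome in female cells, read 109, 1636, 1278 and 1463 at 0, 6, 12 and 24 h, and the Y-linked gene Eif2s3y had 12.2, 295, 305 and 326. Both were low on the 0 h array only. Whether its cells had the same source as the others was not tested. Differences from 0 h therefore cannot be assigned to insulin, time in culture or whatever else set this array apart. Among markers of the labelled cell type, Col1a1, a chain of type I collagen, was bright on every array, from 13802 at 0 h to 23827 at 12 h. Sp7, the osteoblast factor osterix, had 60.8, 125, 161 and 213, and Alpl, alkaline phosphatase, had 61.5, 523, 920 and 1140. Differences from 0 h are therefore given with their chromosome medians and marker levels, and the insulin arrays are also compared with each other, without the 0 h array.

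The start regions of 4 members are shown because, among members with an entry, these differed most between arrays. Each sequence is the 250 bases before a transcript start, 5′ to 3′ on the gene's strand, from a RefSeq table of start regions on GRCm38.p6. The windows of Igfbp3 and Igfbp4 lie inside the gene's full annotated span, so a further start lies upstream of each. Capitals mark matches, on either strand, to any of 9 short motifs. Searched were TATAAA as the TATA box, TATATA and the longer TATTTAA as its variants, GGGCGG as the GC box, CCAAT as the CCAAT box, CACGTG as an E-box, TGACTCA as an AP-1 site, GTAAACA as a FoxO site, and CAAAACA as the core of an insulin response element. The windows lie at chr1:72824230-72824479 on the plus strand (Igfbp2), chr11:7213924-7214173 on the minus strand (Igfbp3), chr11:99040994-99041243 on the plus strand (Igfbp4) and chr1:72874866-72875115 on the minus strand (Igfbp5).
Igfbp2: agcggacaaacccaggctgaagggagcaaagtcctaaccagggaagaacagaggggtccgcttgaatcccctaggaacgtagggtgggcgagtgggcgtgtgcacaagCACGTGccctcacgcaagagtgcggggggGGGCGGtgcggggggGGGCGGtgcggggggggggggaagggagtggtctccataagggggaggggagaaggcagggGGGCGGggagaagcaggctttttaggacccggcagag
Igfbp3: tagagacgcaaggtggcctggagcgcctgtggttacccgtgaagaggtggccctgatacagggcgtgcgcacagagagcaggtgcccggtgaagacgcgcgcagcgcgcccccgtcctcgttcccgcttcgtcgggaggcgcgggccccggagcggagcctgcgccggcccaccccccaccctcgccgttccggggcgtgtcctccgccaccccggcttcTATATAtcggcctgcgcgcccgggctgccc
Igfbp4: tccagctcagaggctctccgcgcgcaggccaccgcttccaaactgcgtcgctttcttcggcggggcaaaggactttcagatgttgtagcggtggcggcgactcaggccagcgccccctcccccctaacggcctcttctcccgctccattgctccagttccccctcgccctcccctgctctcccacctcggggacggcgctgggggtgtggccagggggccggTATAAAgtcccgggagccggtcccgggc
Igfbp5: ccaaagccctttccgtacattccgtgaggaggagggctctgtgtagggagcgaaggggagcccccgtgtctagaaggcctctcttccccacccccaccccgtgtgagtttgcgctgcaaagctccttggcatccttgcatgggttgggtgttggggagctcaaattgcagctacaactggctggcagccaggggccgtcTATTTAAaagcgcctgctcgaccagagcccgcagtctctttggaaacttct

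Igfbp3, Igfbp4 and Igfbp5 each held a TATA-type match, whereas Igfbp2 held none and had 3 GC boxes. The match in Igfbp3 was TATATA at position -30, in Igfbp4 TATAAA at -28 and in Igfbp5 TATTTAA at -51, counted back from the start. Of 32851 mouse start regions of this length, 5.2% held TATATA, 12.4% TATAAA and 4.2% TATTTAA. The GC boxes of Igfbp2 lay at -113, -98 and -37, and its E-box CACGTG at -142. In all start regions a GC box was present in 32.7% and this E-box in 6.0%. Neither the FoxO letters (3.2% of all start regions) nor the insulin response core (5.6%) occurred in any window of the 7 members with an entry, which says only that these letters were not there. TATATA and TATAAA can overlap, and did not in these windows. Igfbp2 has a second start in the table, whose window held the AP-1 letters (4.5% of all start regions) on the opposite strand. Pappa had no entry in the table.

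Against the 0 h array, 14 of the 21 member probe sets were at least 2-fold higher at 6 h, 14 at 12 h and 14 at 24 h, and none was 2-fold lower at any time. Over all probe sets with 1 symbol, 6.06%, 6.78% and 6.52% were 2-fold higher at these times and 3.78%, 4.61% and 4.29% lower. The 14 were higher at all 3 times, against 5.49% of all probe sets and 1769 of the 19915 above the filter. These 14 member probe sets belonged to 6 genes, Igfbp2, Igfbp3, Igfbp4, Igfbp5, Igfbp7 and Pappa, while no probe set of Igfbp6 or Stc2 reached 2-fold. All 6 probe sets of Igfbp4 were among the 14. The median log2 difference of the 21 was 1.26, 1.69 and 1.71, and that of all probe sets was -0.05, -0.06 and -0.07. Several of these differences were known when the genes were chosen, and the 3 comparisons share the 0 h array.

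**Figure D1:**
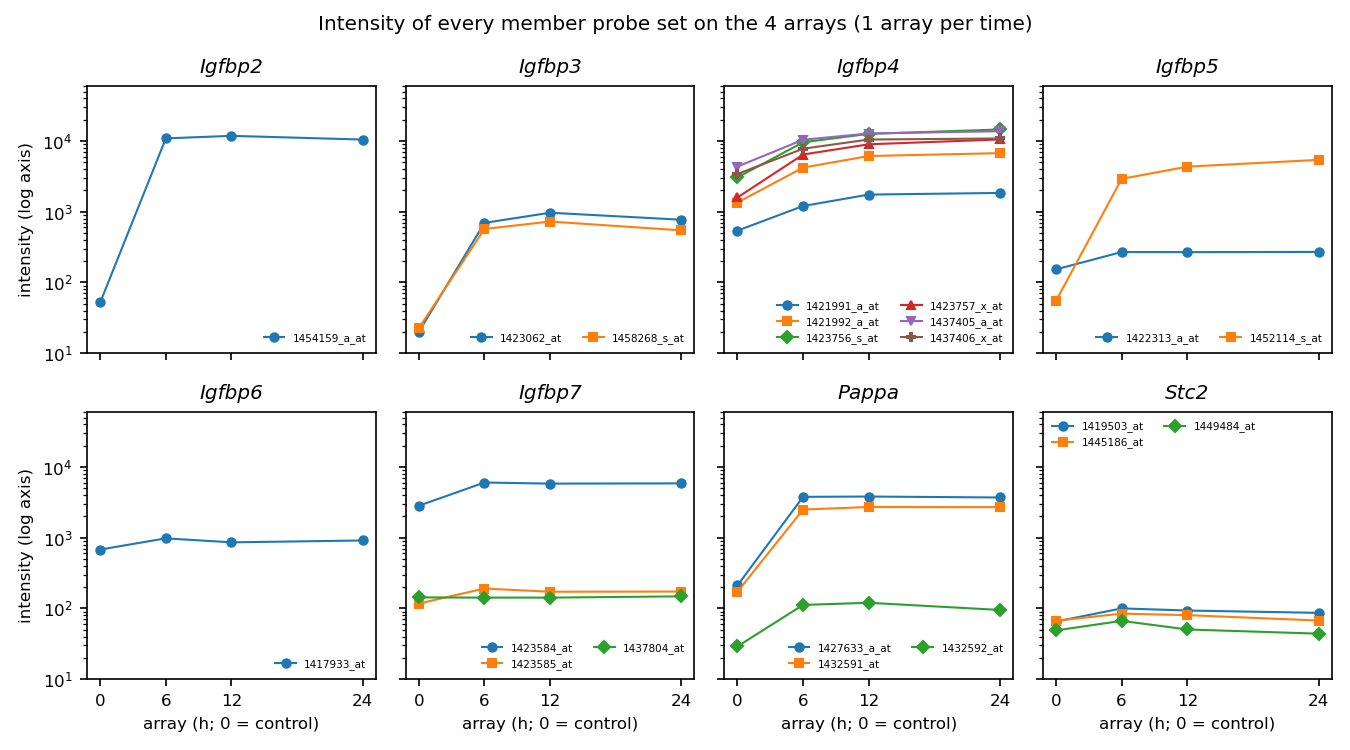
Intensity (log axis) of each of the 21 member probe sets against time, with 1 array per point and time 0 the control. Igfbp2, Igfbp3, 2 probe sets of Pappa and 1 of Igfbp5 are at least 14.5-fold higher on the 3 insulin arrays than at 0 h, while Igfbp6, Igfbp7 and Stc2 change little in comparison.

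Igfbp2, Igfbp3 and Igfbp5 encode 3 binding proteins that hold IGF-1 and IGF-2. Igfbp2, both probe sets of Igfbp3 and 1 of the 2 of Igfbp5 were below the median of the 0 h array and far brighter on every insulin array. The single Igfbp2 probe set read 52.0, 10897, 11830 and 10483 at 0, 6, 12 and 24 h. It lay at percentile 38.6 of the 0 h array and 99.5 of the 24 h array, and was 210, 228 and 202-fold higher at 6, 12 and 24 h. Of the 19915 probe sets above the filter, 0.0100% were at least as far above 0 h at 24 h. IGFBP-2 also binds integrins, through a sequence it does not share with every family member.

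Both Igfbp3 probe sets were lowest at 0 h and highest at 12 h, but differed in the order of 6 and 24 h. Probe set 1423062_at had 20.0, 695, 968 and 770, and 1458268_s_at had 22.5, 570, 726 and 545. They were 34.8 and 25.3-fold higher at 6 h, 48.4 and 32.2-fold at 12 h, and 38.5 and 24.2-fold at 24 h. IGFBP-3 is the main IGF carrier of blood, where it forms a complex with the acid-labile subunit.

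The 2 probe sets of Igfbp5 did not give the same size of difference. 1452114_s_at had 54.9, 2916, 4338 and 5414 at 0, 6, 12 and 24 h, which is 53.1, 79.0 and 98.5-fold higher. 1422313_a_at had 153, 269, 268 and 270, or 1.75, 1.74 and 1.76-fold higher. Both were lowest at 0 h, but on the log2 scale their differences from 0 h were 5.81 apart at 24 h. In Affymetrix naming the suffix of the first means that its probes match several transcripts, which can include those of another gene, and that of the second that its probes match several transcripts of 1 gene. Their positions in Igfbp5 were not given in the sources used here.

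Folds of members this dim at 0 h depend on how low values are treated. With 64 added to every intensity, the 24 h folds were 91.0 for Igfbp2, 46.1 for Igfbp5 (1452114_s_at), and 9.92 and 7.04 for Igfbp3. A constant added to every intensity cannot change the direction of a difference, so only the size is informative here.

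Igfbp4 was already bright at 0 h and higher still on each insulin array, by all 6 of its probe sets. IGFBP-4 mostly inhibits IGF action and is the substrate PAPP-A is best known for. The brightest, 1437405_a_at, had 4346, 10428, 12772 and 13759 at 0, 6, 12 and 24 h. 1423756_s_at had 3049, 9599, 12626 and 14562, 1437406_x_at 3413, 7779, 10503 and 10862, and 1423757_x_at 1590, 6440, 8991 and 10520. 1421992_a_at had 1348, 4206, 6132 and 6744, and 1421991_a_at 540, 1203, 1747 and 1844. In every one of the 6, the arrays stood in the order 0, 6, 12 and 24 h. The folds over 0 h ranged from 2.23 to 4.05 at 6 h, from 2.94 to 5.65 at 12 h and from 3.17 to 6.62 at 24 h. The x suffix marks probe sets some of whose probes can bind other sequences.

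Igfbp7 and Igfbp6 differed less from 0 h. IGFBP-7 binds IGFs weakly and also binds insulin, and IGFBP-6 prefers IGF-2. The brightest Igfbp7 probe set, 1423584_at, had 2832, 6027, 5819 and 5863, which is 2.13, 2.05 and 2.07-fold higher. The others were far dimmer: 1423585_at had 117, 191, 172 and 173, and 1437804_at had 143, 142, 142 and 148. The last was within 1.03-fold of 0 h at every time, so the 3 probe sets of Igfbp7 ranged from almost no difference to a 2-fold one. Igfbp6 had 679, 979, 859 and 913, or 1.44, 1.26 and 1.34-fold higher. Its single probe set was lowest at 0 h, although 23.3% of probe sets above the filter lay as far above 0 h at 24 h.

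Of the regulators, the protease gene Pappa was higher on the insulin arrays by all 3 probe sets, and the inhibitor gene Stc2 was dim on all 4 arrays. Pappa probe set 1427633_a_at had 211, 3782, 3819 and 3703, and 1432591_at had 172, 2499, 2717 and 2701. That is 17.9, 18.1 and 17.6-fold higher for the first and 14.5, 15.8 and 15.7-fold for the second. The dim 1432592_at had 29.0, 112, 120 and 95, or 3.85, 4.15 and 3.28-fold. With 64 added to every intensity, it was below 2-fold at 6 h (1.89), 12 h (1.98) and 24 h (1.71).

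Stc2 probe sets lay near the middle of the intensity range or below it. 1419503_at had 65.1, 100, 93.3 and 86.4, 1445186_at 67.0, 84.3, 80.3 and 67.3, and 1449484_at 48.8, 66.6, 50.3 and 43.9. All 3 were highest at 6 h and lower at 12 h and again at 24 h. Against 0 h the largest was 1.54-fold higher at 6 h by 1419503_at, and at 24 h the log2 differences of the 3 were 0.41, 0.01 and -0.15.

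**Figure D2:**
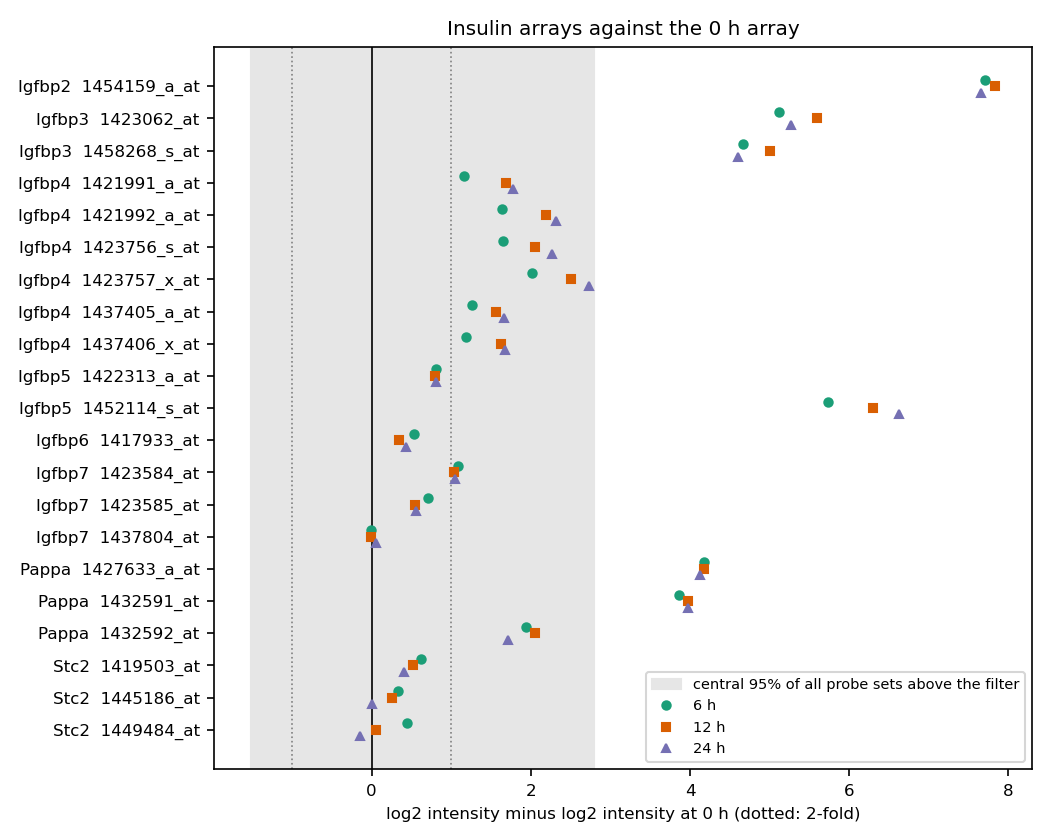
Log2 intensity minus that of the 0 h array for each member probe set at 6, 12 and 24 h. Dotted lines mark 2-fold and the grey band, from -1.51 to 2.79, is the widest central 95% range that the 19915 probe sets above the filter had at any of these times. Igfbp2, Igfbp3, 2 probe sets of Pappa and 1 of Igfbp5 lie to the right of the band.

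The medians of chromosomes 1 and 4, and the markers of several other cell types, were also higher on the insulin arrays. Over genes above the filter, the median log2 difference from 0 h on chromosome 1, which holds Igfbp2 and Igfbp5, was 0.26, 0.29 and 0.29 at 6, 12 and 24 h. On chromosome 4, which holds Pappa, it was 0.31, 0.37 and 0.33. Chromosome 15 with Igfbp6 had -0.18, -0.16 and -0.22, and chromosomes 5 and 11 with the other members lay between -0.07 and 0.02. With these medians removed, the count of 14 higher probe sets was the same at each time.

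Marker lists were read as 1 probe set per gene, the brightest, and counts are of genes above the filter. At least 1.5-fold higher at all 3 times were 4 of 5 tendon, 6 of 7 smooth muscle, 6 of 7 chondrocyte, 6 of 7 macrophage (1 more was lower), 2 of 3 adipocyte and 7 of 9 osteoblast markers. The same was true of 17.3% of all 11657 genes above the filter. Pparg, the adipocyte marker above the filter that was not higher, had 223, 107, 184 and 196 at 0, 6, 12 and 24 h. That is 2.08, 1.21 and 1.14-fold lower than at 0 h. The filter used the mean of the 4 arrays, so markers dim at 0 h, such as Adipoq (23.4) and Scx (18.8), passed through the insulin arrays. Markers dim on every array, such as Cidec and Lep, were left out, so the counts lean toward higher. Measured with or without the filter were 5 tendon, 7 smooth muscle, 8 chondrocyte, 8 macrophage, 5 adipocyte and 9 osteoblast markers. The summed intensity over all measured markers at 0 h and at 6 to 24 h was 509 and 13207 to 15913 for tendon, 6308 and 44067 to 46706 for smooth muscle, and 1045 and 6521 to 11175 for chondrocyte. It was 965 and 5382 to 7604 for macrophage, 957 and 2542 to 5227 for adipocyte, and 35380 and 56147 to 68250 for osteoblast markers. Endothelial markers summed to 245 at 0 h and 249 to 278 later, and hepatocyte markers to 299 and 296 to 304, with the markers Pecam1, Cdh5 and Alb at 31.6 or less on every array. Below the filter, the endothelial marker Tek had 21.3, 38.6, 38.8 and 40.1, or 1.81, 1.83 and 1.89-fold higher. The hepatocyte marker Cyp2e1, also below it, had 46.4, 36.5, 29.8 and 34.4, or 1.27, 1.56 and 1.35-fold lower. Above the filter in these lists were Kdr (111 to 137), Ttr (123 to 154) and Apoa1 (67.7 to 70.5). The part of other cell types in the members' differences was not tested, and in bulk RNA more cells of a type and more RNA per cell cannot be told apart.

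Compared with each other, the insulin arrays differed most in Igfbp4, Igfbp5 and Igfbp3, and in 1 dim probe set of Stc2. At 24 h against 6 h, 5 of the 21 probe sets were at least 1.5-fold higher, 4 of Igfbp4 and 1 of Igfbp5, and 1 of Stc2 was 1.5-fold lower. The latter, 1449484_at, is the member below the brightness filter, and with 16 added to every intensity it no longer reached 1.5-fold. Over all probe sets with 1 symbol the shares were 1.07% and 0.449%. At 12 h against 6 h none was 1.5-fold higher or lower (0.690% and 0.567% of all), nor at 24 h against 12 h (0.203% and 0.137%). The 21 had a median log2 difference of 0.00 between 24 and 6 h.

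Igfbp5 probe set 1452114_s_at was 1.49-fold higher at 12 h than at 6 h and 1.86-fold higher at 24 h than at 6 h. Of the probe sets above the filter, 0.487% were at least as much higher at 24 h than at 6 h. The other Igfbp5 probe set did not share this course, with a log2 difference of 0.00 between 24 and 6 h. For Igfbp4 the 6 probe sets were 1.22 to 1.46-fold higher at 12 h than at 6 h and 1.32 to 1.63-fold higher at 24 h than at 6 h. Between 12 and 24 h they differed by 1.03 to 1.17-fold, all upward. Probe sets of 1 gene read the same RNA on the same arrays and are not replicates.

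In Igfbp3 the 12 h array was the highest. It was 1.39 and 1.27-fold above 6 h for the 2 probe sets, and the 24 h array was 1.26 and 1.33-fold below 12 h. A drop from 12 to 24 h at least this large was seen in 1.45% and 0.452% of probe sets above the filter. Stc2 went down by all 3 probe sets, whose log2 differences of 24 h minus 6 h were -0.21, -0.32 and -0.60. Igfbp2 spanned 1.13-fold over the 3 insulin arrays, Igfbp6 1.14-fold, the brightest Igfbp7 probe set 1.04-fold and the brightest Pappa probe set 1.03-fold. Of the 21 probe sets, 7 were in the order 6, 12 and 24 h from low to high, 3 in the opposite order and 6 were highest at 12 h. Among all probe sets above the filter those shares were 16.2%, 20.5% and 35.3%. The 7 were all probe sets of Igfbp4 and 1452114_s_at of Igfbp5, and the 3 were those of Stc2, so these counts rest on few genes.

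**Figure D3:**
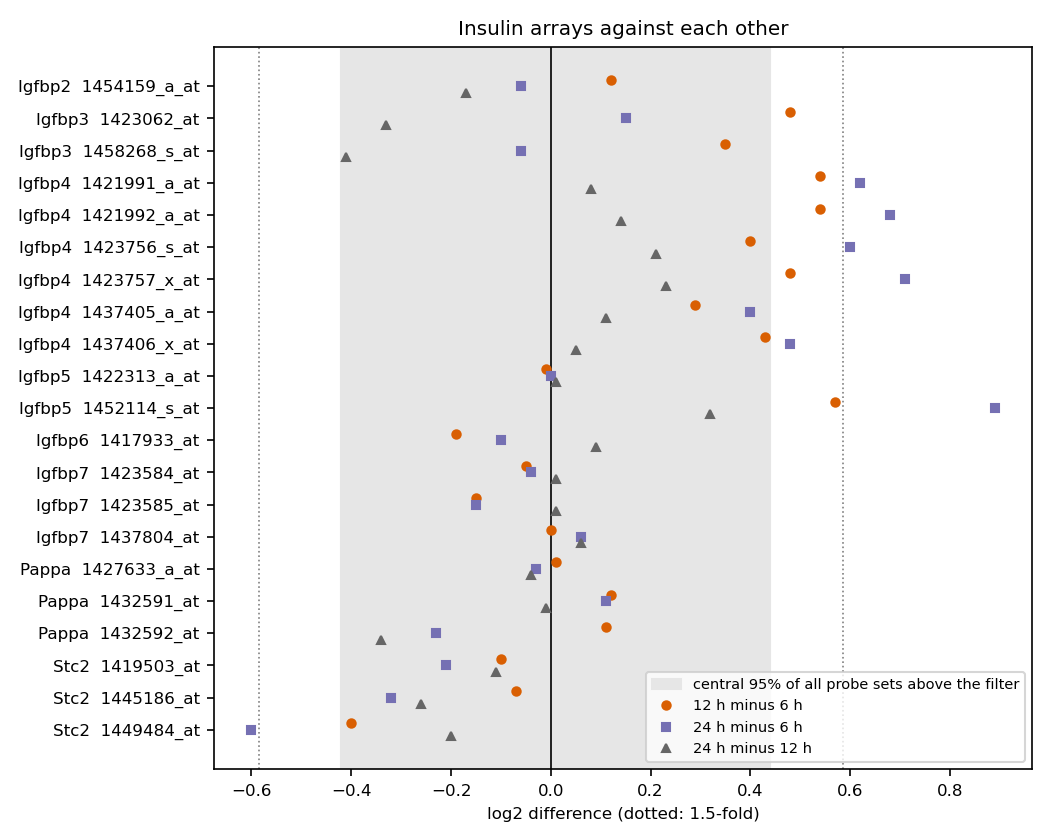
Log2 differences between insulin arrays for each member probe set, with dotted lines at 1.5-fold. The grey band is drawn from the central 95% ranges of the 19915 probe sets above the filter in these comparisons. It runs from their lowest lower limit, -0.42, to their highest upper limit, 0.44. At 24 h minus 12 h that range was narrower, from -0.29 to 0.33. At 24 h minus 6 h, 5 of the 6 Igfbp4 probe sets and 1 of Igfbp5 lie to its right, and 1 of Stc2 to its left.

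The other genes of the IGF system were read from lists chosen with earlier results of these data known, as 1 probe set per gene. Here too a gene dim at 0 h could pass the filter through the insulin arrays, so counts above it lean toward higher. Of all genes above the filter, 18.9%, 20.7% and 19.8% were at least 1.5-fold higher at 6, 12 and 24 h and 13.0%, 13.5% and 13.5% lower. At all 3 times together 17.3% were higher and 10.7% lower, and the median log2 differences of these genes were 0.01, 0.03 and 0.00.

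Both ligands were higher on the insulin arrays, and the insulin receptor was lower by its brightest probe set. Igf2 had 283, 3797, 4115 and 4172 at 0, 6, 12 and 24 h by its bright probe set, and its other, dim one had 29.0, 34.5, 33.3 and 29.8. Igf1 had 1641, 5532, 5983 and 6024 by its brightest probe set, or 3.37, 3.65 and 3.67-fold higher, and all 4 of its probe sets were above the filter. Igf1 RNA was thus detected on every array, although the genotype entry reads IGF-1 null. Igf1r, whose product the growth protocol describes as missing, also gave signal, with 388, 259, 265 and 319 by its brightest probe set. Which part of a gene was removed, and whether these probes lie in it, was not given in the sources used here. Among the 6 genes of this list above the filter, Igf2 and Igf1 were 1.5-fold higher at all times, and Insr, the insulin receptor, was lower (2.04, 1.80 and 1.71-fold). The other Insr probe sets were below the filter, at 16.3, 16.1, 14.4 and 13.7 and at 37.8, 39.6, 33.4 and 35.4. Averaged over its probe sets, Insr was no longer 1.5-fold lower. Igf1r, read by its brightest probe set, had log2 differences of -0.58, -0.55 and -0.28, and Igf2r, which takes up IGF-2 for degradation, of -0.37, -0.58 and -0.43. Another probe set above the filter pointed the other way for each, Igf1r (74.7, 139, 120 and 119) and Igf2r (384, 730, 805 and 818). The list medians were -0.08, -0.08 and -0.02, and turned to 0.25, 0.31 and 0.29 when each gene's probe sets were averaged. The acid-labile subunit gene Igfals was among those within 1.5-fold.

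Close relatives of the members went separate ways. Pappa2, a protease of the same family as Pappa that cleaves IGFBP-3 and IGFBP-5, had 78.8, 555, 675 and 677, or 7.04, 8.56 and 8.58-fold higher. Igfbp1, the binding protein gene known for its repression by insulin in liver, was dim throughout at 16.8, 18.4, 16.5 and 14.0. Stc1, the paralogue of Stc2, had 195, 145, 142 and 138 by its brighter probe set and 25.3, 26.0, 26.0 and 24.2 by the other. Only Pappa2 and Stc1 of the 5 genes in this list reached the filter.

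Genes of proteins that share the N-terminal IGFBP-type domain were higher for the most part. Of 10 above the filter 8 were at least 1.5-fold higher at all 3 times and none was lower, and the medians were 2.97, 3.18 and 3.08. Esm1, the proteoglycan endocan, had 18.8, 627, 1284 and 1543, and Ccn3 had 85.4, 2144, 2878 and 2191. Ccn2, the matricellular connective tissue growth factor, was 35.9, 42.5 and 41.3-fold higher and Ccn5 12.3, 13.9 and 12.2-fold.

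Proteases reported to cleave IGF-binding proteins were split. Of 16 above the filter 6 were higher and 7 lower at all 3 times, with medians of -0.09, -0.08 and -0.07. Htra1, a secreted serine protease, was 10.2, 11.2 and 11.5-fold higher and the metalloproteinase gene Adam12 10.3, 8.65 and 9.58-fold. C1s1, a complement protease, had 2880 at 0 h and 405, 589 and 626 later, 7.11, 4.89 and 4.60-fold lower. Of 5 protease inhibitors above the filter 3 were higher and none lower, with medians of 1.80, 1.71 and 1.85: Serping1, which inhibits C1s (10.0, 16.9 and 20.1-fold), Timp3 (8.65, 10.4 and 9.23-fold) and Timp1 (3.47, 3.28 and 3.60-fold).

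Proteins reported to bind IGF-binding proteins had 6 of 14 higher and none lower, with medians of 0.44, 0.47 and 0.45. The matrix protein gene Thbs1 was 11.2, 11.6 and 11.2-fold higher and Ptprz1, a receptor phosphatase that binds IGFBP-2, 8.33, 13.3 and 11.0-fold. Lrp1, a scavenger receptor, was 1.96, 2.25 and 2.25-fold higher and the integrin gene Itga5 1.71, 1.84 and 1.80-fold. Among 17 hormone receptors, growth factors and transcription factors reported to regulate IGF-binding protein genes, 8 were higher and 1 was lower, with medians of 0.35, 0.58 and 0.44. Pth1r, through which parathyroid hormone acts, was 19.0, 32.1 and 39.1-fold higher, Bmp4 15.3, 15.5 and 13.0-fold, the hypoxia factor gene Epas1 5.97, 9.24 and 10.4-fold and Tgfb3 6.75, 7.54 and 6.76-fold.

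**Figure D4:**
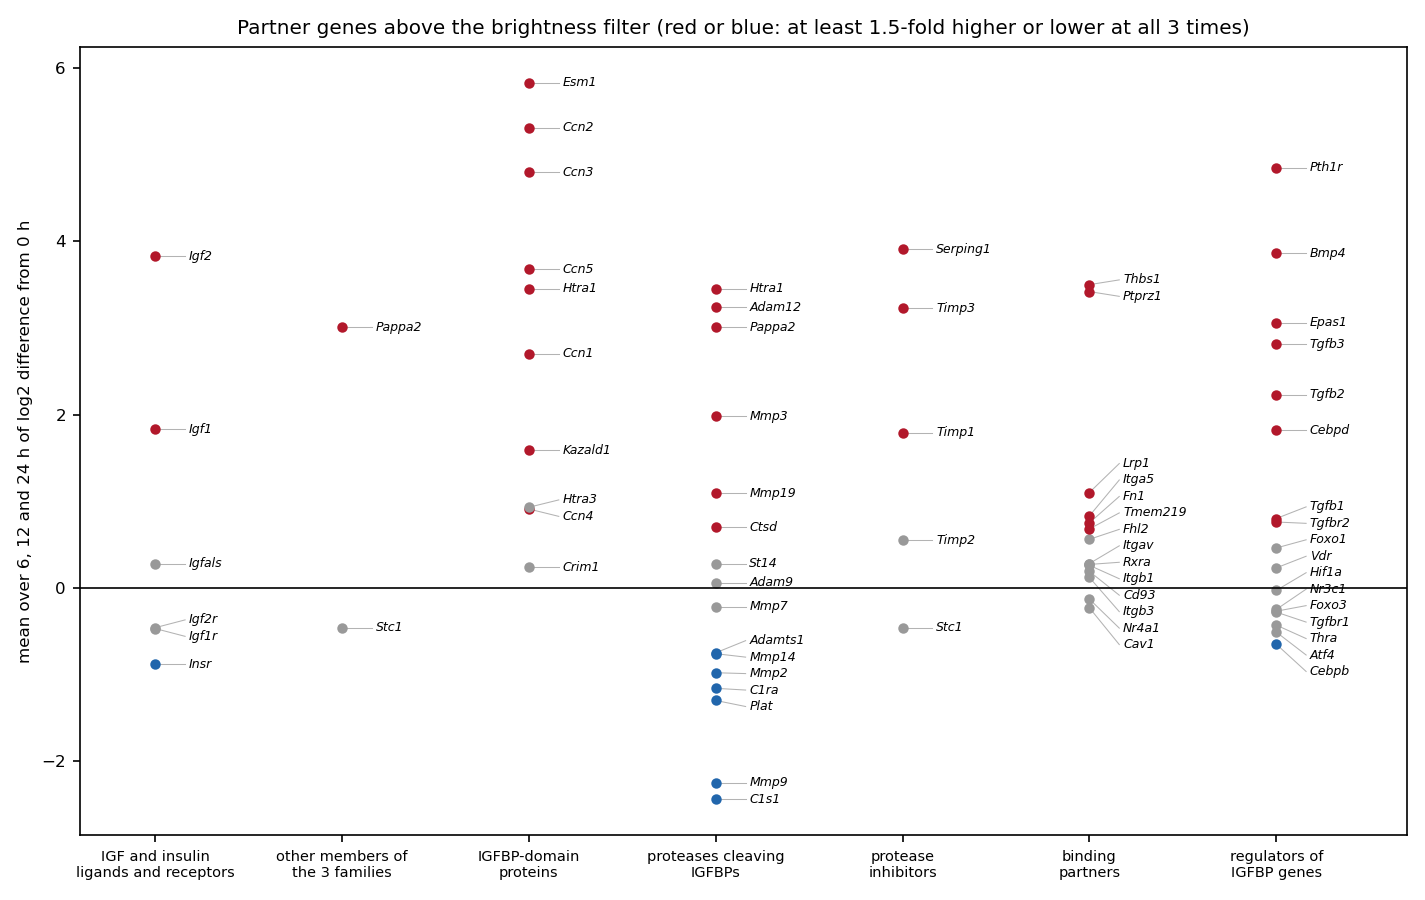
Mean over 6, 12 and 24 h of the log2 difference from 0 h for each partner gene above the filter, in 7 lists, by its brightest probe set. Red points were at least 1.5-fold higher and blue points lower at all 3 times, and a gene on several lists appears in each. The protease list holds 6 red and 7 blue points.

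Genes with the most similar profile were found by the Euclidean distance between the 4 log2 values of the brightest probe set, each profile centred on its own mean, among 11657 genes above the filter. For Igfbp2 the nearest were Tenm3 (0.21), Sulf1 (0.51) and Rps4l (0.78), and for Igfbp3 Abat (0.17), Itm2a (0.21) and Ccn2 (0.22). Igfbp5 was nearest to Car3 (0.16), Ibsp (0.45) and Esm1 (0.49). Car3 had 48.0, 2347, 4053 and 4907, so it shared both the low 0 h value and the order of the insulin arrays. Igfbp4 was nearest to Als2cl (0.04), Glul (0.09) and Ncf1 (0.10), and Pappa to Gpnmb (0.12), Ch25h (0.12) and Def6 (0.14). The less variable members had nearer neighbours: Plaur (0.02), Rap2a (0.03) and Mmgt1 (0.04) for Igfbp6, Necap2 (0.03), Lrrc8c (0.03) and Notch1 (0.04) for Igfbp7, and AU022252 (0.02), Timm29 (0.03) and Ube2j2 (0.03) for Stc2. With 4 arrays, 1 of which stands apart, a small distance says little more than that the 0 h gap was alike.

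Igfbp2 and Igfbp5 are next to each other on chromosome 1, and the measured genes beyond them did not share their differences. Rpl37a, on the far side of Igfbp2, was 0.16, 0.11 and 0.13 log2 above 0 h, and Tnp1, on the far side of Igfbp5, was dim on all 4 arrays (20.9, 18.7, 18.8 and 16.5). Igfbp3 stands between Igfbp1, dim as given above, and Tns3, which was 0.17, 0.23 and 0.18 log2 above 0 h. Beside Igfbp4, Top2a, a gene of dividing cells, had 1126, 641, 466 and 724, and Tns4 was dim, between 31.6 and 34.3. Of the genes beside Pappa, 8030451A03Rik and Astn2, neither exceeded 39.3. Spryd3 and Csad beside Igfbp6 were 0.26, 0.19 and 0.17 above and 1.23, 0.75 and 0.80 below 0 h in log2. Beside Igfbp7, Polr2b lay 0.26, 0.24 and 0.22 below and 1700017L05Rik was at 19.6 or less on every array, and beside Stc2, Chac2 was 0.56, 0.50 and 0.51 below and Bod1 0.21, 0.18 and 0.16 above.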

How the data were processed

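RNA of cultured mouse osteoblasts was hybridised to 4 arrays, 1 in each group, and grouped by the labels. The authors deposited 1 linear intensity per probe set and array, made with RMA per the submitters' processing notes. Software, version and build: not given in the sources used here. Values ran from 7.34 to 31292, and log2 was taken here. RMA compresses differences of dim probe sets.

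Of 45101 probe sets, 64 were controls, 932 had several symbols and 9160 none in the platform annotation given, which can be old. Lists used the brightest probe set of each gene and the filter at a mean of 67.8. Chromosomes, neighbours and start regions came from RefSeq tables of GRCm38.p6; the array files name no build, so RefSeq gene positions served only to order genes, and coordinates are printed for start regions alone. With 1 array per group no test was possible. Differences were counted at 2-fold against 0 h, and at 1.5-fold between insulin arrays and in lists. The members, lists and thresholds were chosen with earlier results of these data known.

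Named genes were all members, up to 4 per list by mean difference among those 1.5-fold from 0 h at all 3 times, 8 fixed IGF system genes, the 3 nearest profiles and the chromosomal neighbours. Sp7, Alpl, Col1a1, Igfals, Pparg and the endothelial and hepatocyte markers were named after their values were seen. Counting was tested on simulated data. Alternatives were other scalings, added constants, folds, filters, probe sets and references. Python 3.11.15, numpy 2.4.6, pandas 2.3.3, statsmodels 0.14.6 and matplotlib 3.10.9 were used.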

Additional observations from a re-analysis of the deposited data

How the results depend on the processing

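No paired analysis was possible because each group has 1 array. With each insulin array as the reference in place of 0 h, the number of member probe sets at least 2-fold higher on all 3 other arrays was 0, 0 and 0, against 14 with 0 h. No member spanned more than 1.86-fold over the insulin arrays, so these counts could not differ from 0. Leaving out suffixed probe sets gave 4 of 10 at 6, 12 and 24 h, because 10 of the 14 carry a suffix. Counts between insulin arrays are small and moved more. At 12 h minus 6 h, centring each array on its median made 1 probe set 1.5-fold higher, and the lower alternative threshold gave 8 higher and 1 lower. At 24 h minus 12 h that threshold gave 3 lower. At 24 h minus 6 h the 5 higher became 0 at a threshold of 2, 1 of 8 with 1 probe set per gene and 0 of 10 without suffixed probe sets. The 1 lower became 2 at the lower threshold, 1 of 10 without suffixed probe sets, and 0 at a threshold of 2, with 16 or 64 added, at either brightness filter and with 1 probe set per gene. In the lists, the mean of all probe sets gave 0 lower ligand and receptor genes (1 as reported) and 3 lower regulators (1 as reported). Without the filter the medians of the 5 close relatives were -0.36, -0.35 and -0.35, against 1.19, 1.32 and 1.30 for the 2 above it. Some changes at 24 h minus 6 h follow from the values themselves. All 5 higher probe sets carry a suffix, and the largest difference was 1.86-fold. With 1 probe set per gene, Igfbp4 was read by 1437405_a_at, at 1.32-fold. The 1 lower probe set is itself below the brightness filter. For the remaining changes the cause was not tested. The other 219 of 242 stayed within 1.5 times their reported value, and included counts that were 0 both ways. Where an alternative used fewer probe sets, shares were compared in place of counts. With 1 probe set per gene, for example, 6 of 8 were 2-fold higher than 0 h at each time, against 14 of 21. Adding 16 or 64 moved 6 and 15 of 63 log2 differences from 0 h by over 1.5-fold, and an added constant cannot change their sign. Signal over background limits the members dim at 0 h.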
